A study of Mus musculus with 30 samples.

Results

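The very long genes of mouse embryonic stem cells were followed through the loss of 3 kinds of cohesin cofactor. A gene was taken as very long when its exons, in the deposited gene models, lay across a span of 400000 bases or more on GRCm38, from the smallest exon start to the largest exon end. Of 55421 genes, 380 met this span. The 17 whose symbols start with Scn, Cacna1, Kcn, Col, Lam or Pcdh were left out, which gave 363 genes, 340 of them protein coding and 15 on the X chromosome. The choice used gene coordinates and no measured value. Gm45341, at 400144 bases, was just inside the limit and Plxdc2, at 399535 bases, just outside it. In the RefSeq models of GRCm38.p6, 347 of the 363 genes were found, and 326 of these also spanned 400 kb or more. Among the 21 that did not were Fgfr2 and Sh3gl2, whose longest intron in the deposited models, 2815493 and 237271 bases, is larger than their whole RefSeq span of 104357 and 183924 bases.

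Most of such a gene is intron. Cohesin is a ring-shaped complex that extrudes chromatin into loops, NIPBL is the factor that drives this movement, WAPL releases the ring from chromatin, and PDS5A and PDS5B bind the ring and take part in its release and in stopping it at CTCF sites. A gene of this length can hold several loops and its own enhancers inside its introns, and RNA polymerase needs hours to copy it. Very long genes are known for roles in neurons, muscle and cell adhesion, and several lie at common fragile sites, where chromosomes break under replication stress.

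Polyadenylated RNA was sequenced from 5 engineered lines of E14Tg2a cells, a male line of 129P2/Ola origin grown in medium with serum, LIF, PD0325901 and CHIR-99021, each untreated and after 24 h of treatment. Each of the 10 groups had 3 libraries. All lines carried Tir1, a plant F-box protein that lets auxin destroy a protein fused to an auxin-inducible degron (AID). The TIR1 line (EN148.10) had no degron and was given auxin alone. The PDS5AB line (EN293.1) carried PDS5A-AID and PDS5B-AID, and the WAPL line (CMW184) carried WAPL-AID. The PDS5AB-NIPBL line (EN331.2) added NIPBL-FKBP and RAD21-Halo to the PDS5A and PDS5B degrons, and the WAPL-NIPBL line (EN382.1) added both to WAPL-AID. FKBP is a degron tag that answers to dTAG-13. Auxin was used at 500 µM, and the combined lines also received dTAG-13 at 500 nM. No group received dTAG-13 alone, so an effect of the compound itself cannot be told apart from NIPBL loss. Each genotype was 1 named line, so a difference between lines is a difference between these clones. Degrons act on protein, so transcript levels do not show the depletion. Nothing in the labels says that replicates were separate cultures, and p-values then measure only the spread between these libraries, which may be technical.

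The libraries held 19632704 to 45539021 counted fragments, and 0.316% to 0.425% of these fell on the very long genes. Between 250 and 317 of the 363 genes had a count in a given library. The summed level of 8 embryonic stem cell markers was 4167 to 6998 counts per 1000000 fragments (CPM) in every library. Its mean was 6484 CPM untreated and 6446 treated in TIR1, 6651 and 4394 in PDS5AB, and 6396 and 5040 in WAPL. In the combined lines it was 6886 and 5715 (PDS5AB-NIPBL) and 6421 and 5403 (WAPL-NIPBL). The sum of 7 neural markers ran from 240 to 479 CPM and its mean was lower after treatment in every line, with Dcx at or under 0.294 CPM. Most of that sum is Stmn2 and Tubb3, and single members differed in direction: 4 of the 7 had a higher mean after treatment in PDS5AB, 5 in WAPL (Tubb3 among them), 3 in each combined line and 1 in TIR1. Sums for fibroblast, primitive endoderm and trophoblast markers reached at most 42.1, 26.1 and 78.8 CPM. The primitive endoderm sum had a higher mean after treatment in all 5 lines (25.2 against 13.1 CPM in PDS5AB). So did the trophoblast sum (69.2 against 41.4 CPM in PDS5AB), but in PDS5AB Krt8 was the 1 of its 4 members with a higher mean, and the mean of Eomes was lower in all 5 lines. The fibroblast mean went from 28.7 to 41.4 CPM in PDS5AB (3 of 5 members higher) and from 24.4 to 17.8 in WAPL (2 of 5 higher). In bulk RNA a change in the share of a cell type and a change of RNA per cell cannot be told apart, and the part of these markers in the results was not tested. Library numbers in the labels run from 1 to 21 for the PDS5AB and untreated TIR1 groups and from 25 to 45 for all others. The auxin effect in TIR1, and the untreated WAPL and combined lines against untreated TIR1, therefore cannot be told apart from this break.

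Start sites are shown for 4 genes, 2 that were higher (Ptprm, Glis3) and 2 that were lower (Ryr2, Sh3gl2) after all 4 depletions, because their promoters differ in CpG content. Each sequence is the 250 bases before the RefSeq start site in GRCm38.p6, read 5′ to 3′ on the gene's strand, with every CG dinucleotide in capitals. The windows are chr17:67354460-67354709 (minus strand, 37 CG) for Ptprm, chr19:28680078-28680327 (minus strand, 24 CG) for Glis3, chr13:12106946-12107195 (minus strand, 14 CG) for Ryr2 and chr4:85205206-85205455 (plus strand, 22 CG) for Sh3gl2.
Ptprm: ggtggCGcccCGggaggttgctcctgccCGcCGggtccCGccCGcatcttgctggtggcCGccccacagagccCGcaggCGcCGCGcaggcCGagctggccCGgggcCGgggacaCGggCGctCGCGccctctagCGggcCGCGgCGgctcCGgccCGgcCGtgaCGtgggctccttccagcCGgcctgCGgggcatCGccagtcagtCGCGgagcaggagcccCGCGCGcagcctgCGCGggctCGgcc
Glis3: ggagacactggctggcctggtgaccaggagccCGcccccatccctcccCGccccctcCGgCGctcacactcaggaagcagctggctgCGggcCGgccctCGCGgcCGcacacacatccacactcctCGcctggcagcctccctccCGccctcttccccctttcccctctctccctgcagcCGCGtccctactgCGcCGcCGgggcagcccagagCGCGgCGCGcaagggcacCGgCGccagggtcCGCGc
Ryr2: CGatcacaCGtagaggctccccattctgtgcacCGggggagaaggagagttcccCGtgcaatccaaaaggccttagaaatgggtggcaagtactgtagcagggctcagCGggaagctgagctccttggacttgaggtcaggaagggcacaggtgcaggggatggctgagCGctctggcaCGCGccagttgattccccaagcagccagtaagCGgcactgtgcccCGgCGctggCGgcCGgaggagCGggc
Sh3gl2: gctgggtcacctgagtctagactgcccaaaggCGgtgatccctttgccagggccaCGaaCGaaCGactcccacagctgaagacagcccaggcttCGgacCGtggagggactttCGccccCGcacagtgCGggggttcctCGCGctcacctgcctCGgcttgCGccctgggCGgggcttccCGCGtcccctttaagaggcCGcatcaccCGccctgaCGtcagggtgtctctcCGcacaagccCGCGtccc

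A RefSeq start was found for 264 of the 363 genes, 167 of them among those abundant enough to be tested. The median window held 15 CG in the tested very long genes, 9 in those not tested, 14 in shorter tested genes and 6 over all 32851 promoters in the RefSeq table. Of the genes called in all 4 depletions, the 5 higher ones with a start held 7 to 37 CG (median 21). The 11 lower ones held 0 to 38 CG (median 14). These ranges overlap, so the 4 windows shown do not stand for a difference between higher and lower genes. The letters TATAAA, searched on both strands, were in 7.78% of the tested very long promoters, 6.92% of the shorter tested ones and 12.4% of all promoters, and in none of the 4 windows shown. Some RefSeq starts lie inside the deposited gene, that of Sh3gl2 by 330 bases, that of Kalrn by 59505 and that of Pde10a by 276373. Such a window falls within the deposited span, and it is counted in the values above. These are descriptions of sequence, with no test.

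The genes were long through their introns. The median span was 560285 bases and the median summed exon length 9014 bases. The median share of the span that is exon was 1.46% in the protein-coding ones, against 20.9% in shorter protein-coding genes. Their median gene had 21 separate exon blocks and a longest intron of 182041 bases, and 58 genes spanned over 1000000 bases. Counts came from exons alone. They were low for the length of RNA: the tested very long genes had a median of 0.252 CPM per kb of exon, against 2.44 in shorter tested genes. Within protein-coding genes the median per kb was 4.65 at 50 to 100 kb, 2.51 at 100 to 200 kb, 1.12 at 200 to 400 kb and 0.259 at 400 kb or more.

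**Figure D1:**
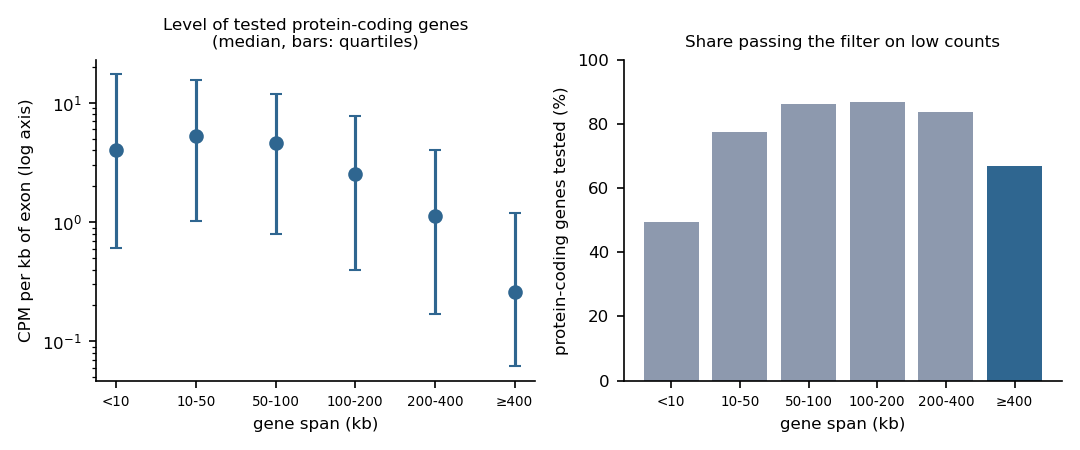
Level and detection of protein-coding genes by gene span in kb. Left, median CPM per kb of exon over the 30 libraries with quartile bars on a log axis, which ends at 0.259 for genes of 400 kb or more. Right, percent of genes that passed the filter on low counts, 67.1% in the longest class and 86.8% at 100 to 200 kb.

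Of the 363 genes, 232 passed the filter and were tested, 228 of them protein coding. The other 131 had a mean of at most 5.33 counts per library, and 14 had no count at all. Among the tested genes, 131 had 10 or more counts in every library of every group, and 23 did so in at most 1 group, so these few entered through the group in which they were high. An exon of 80 tested genes overlapped an exon of another gene. The libraries were stranded but were counted without strand, so such genes are uncertain, and they are marked below.

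The 5 genes with the highest level per kb of exon were Snd1, Exoc4, Dst, Slc39a11 and Dock1. Snd1, a nuclease-domain protein that binds RNA, stood at 21.4 CPM per kb over all libraries. Exoc4, a subunit of the exocyst that tethers secretory vesicles, stood at 15.2, the cytoskeletal linker Dst at 13.1, the zinc transporter Slc39a11 at 11.2 and the Rac activator Dock1 at 11.2 CPM per kb. Snd1 was at 167 to 191 CPM in untreated TIR1 cells and at 178 to 214 CPM in all 6 treated PDS5AB and WAPL libraries, and it passed the test in none of the 5 treatments. Dst alone made up 12.7% to 16.2% of the fragments on very long genes (group means). It rose in PDS5AB cells, from 400, 419 and 459 CPM to 544, 586 and 592 CPM (log2 0.43, SE 0.12, adjusted p = 0.0039). Every adjusted p in the text comes from the quasi-likelihood test of edgeR, adjusted over all tested genes by the Benjamini-Hochberg method. The groups did not overlap. The PDS5AB effect on Dst minus that of auxin alone was 0.16 (SE 0.169, adjusted p = 0.52). Dst has exons that overlap those of other genes. The share of fragments on very long genes was lower in replicate 1 than in the other replicates of the WAPL line (0.331% of fragments untreated and 0.351% treated), and Dst in those libraries was at 436 and 433 CPM against 572 to 706 CPM in the other 4.

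More very long genes were called than the share over all genes in each depletion, and in the combined lines the excess was in lower calls. The threshold for a call was an adjusted p of 0.05. After loss of PDS5A and PDS5B, 74 of 232 rose and 53 fell, against 25.8% and 20.2% of all 19868 tested genes. After loss of WAPL, 60 rose and 43 fell, against 17% and 15.8% of all genes. In PDS5AB-NIPBL cells 26 rose and 41 fell, against 11.4% and 8.06%. In WAPL-NIPBL cells 10 rose and 33 fell, against 5.11% and 3.45%. Auxin alone in TIR1 cells raised 34 and lowered 25, against 10.4% and 9.59%. Expressed as shares of the 232, the lower calls came to 22.8%, 18.5%, 17.7%, 14.2% and 10.8% in PDS5AB, WAPL, PDS5AB-NIPBL, WAPL-NIPBL and TIR1. The higher calls in the combined lines, 11.2% and 4.31%, were near the shares over all genes. The count in WAPL-NIPBL cells was 29, 28 and 27 in place of 43 without untreated replicate 1, untreated replicate 2 or treated replicate 3. These are 12.1%, 11.7% and 11.25% of those tested, against 5.68%, 6.46% and 5.79% of all genes in the same fits, and 18.5% against 8.57% with every library.

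**Figure D2:**
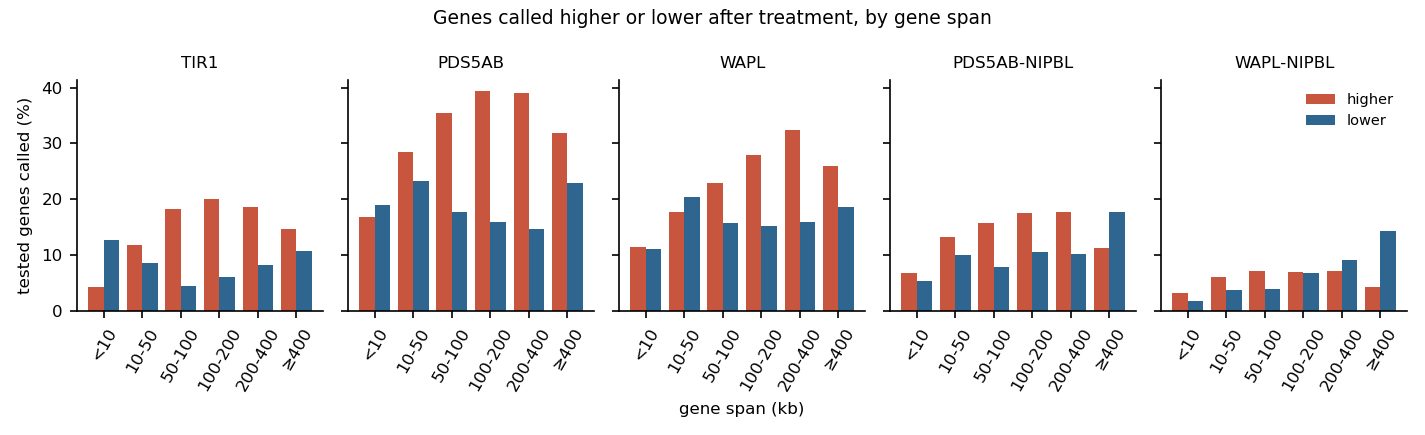
Percent of tested genes called higher (red) or lower (blue) after treatment in each line, by gene span in kb. In WAPL-NIPBL the lower share climbs from 1.70% under 10 kb to 14.2% at 400 kb or more, while in PDS5AB and WAPL the higher share peaks at 100 to 400 kb and is 31.9% and 25.9% in the longest class.

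The share of lower calls increased with span in the WAPL-NIPBL line. It was 1.70% under 10 kb, 3.80% at 10 to 50 kb, 3.85% at 50 to 100 kb, 6.75% at 100 to 200 kb, 9.04% at 200 to 400 kb and 14.2% at 400 kb or more. Longer genes also differ in level, so the comparison was made at matched level. Among genes of 5 to 20 CPM, 29.4% of 51 very long genes and 4.31% of 3205 shorter genes were lower in WAPL-NIPBL cells. At 1 to 5 CPM the shares were 12.5% of 64 and 2.19% of 3329, and at 20 CPM or more 21.4% of 42 and 5.60% of 7520. The PDS5AB-NIPBL line gave 31.4% against 8.39% at 5 to 20 CPM, 18.8% against 5.44% at 1 to 5 CPM and 16.7% against 13.8% at 20 CPM or more. In the PDS5AB line the lower shares at 5 to 20 CPM were 37.3% and 17.2%, and at 20 CPM or more 33.3% and 38.1%. WAPL gave 29.4% against 16.9% at 5 to 20 CPM, and auxin alone in TIR1 19.6% against 12.7%, so at that level the very long share was above the shorter one in all 5 lines. At 20 CPM or more WAPL had 23.8% against 27% and TIR1 4.76% against 11.1%. Higher calls at matched level in PDS5AB were 36% against 23.2% under 1 CPM, 35.9% against 36.05% at 1 to 5 CPM, 27.5% against 34.3% at 5 to 20 CPM and 23.8% against 19.3% above. In WAPL the higher share of very long genes was above that of shorter genes in all 4 classes of level (33.3% against 25.7% at 5 to 20 CPM). With auxin alone in TIR1 the higher shares were 2.67% against 2.75% under 1 CPM and 14.1% against 7.27% at 1 to 5 CPM. They were 13.7% against 10.6% at 5 to 20 CPM and 38.1% against 17.1% at 20 CPM or more. These shares are counts of calls, with no test between classes.

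The median log2 fold change of the 232 genes was -0.03 in TIR1, 0.19 in PDS5AB and 0.13 in WAPL, and -0.04 and -0.12 in PDS5AB-NIPBL and WAPL-NIPBL, and over shorter genes -0.005, 0.04, 0.004, 0.003 and 0.007 in that order. Over the 132 very long genes whose mean reached 50 counts the medians were 0.0009 in PDS5AB and 0.004 in WAPL. In WAPL-NIPBL, 71.2% of these 132 genes had a fold change below 0, against 50.6% of shorter genes with such counts. With genes at or under 3 counts in 1 group set to the fold that 3 counts allow, the medians were -0.03, 0.19, 0.13, -0.06 and -0.13 in the same order. Computed from single replicates of the same number, the WAPL-NIPBL medians were -0.10, -0.16 and -0.03, and the PDS5AB medians 0.12, 0.16 and 0.15. Across the 232 genes Spearman's correlation of fold change with span was -0.25 in PDS5AB-NIPBL, -0.20 in WAPL-NIPBL, -0.15 in WAPL, -0.12 in PDS5AB and -0.03 in TIR1. With mean count it was -0.34 in PDS5AB and -0.26 in WAPL, farther from 0 than with span, and -0.04, -0.07 and 0.14 in PDS5AB-NIPBL, WAPL-NIPBL and TIR1. The genes share libraries and depth and are not independent.

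The single-cofactor lines moved many of the same genes. Of the 232 genes, 73 were called in both PDS5AB and WAPL, 72 of them in the same direction, which is 31.5% of the tested very long genes and 23.2% of shorter genes for both calls. The 73 were 57.5% of the 127 called in PDS5AB and 70.9% of the 103 called in WAPL. Pearson's r of fold changes across the 232 genes was 0.725 between PDS5AB and WAPL, and 0.610 across shorter genes. Between PDS5AB and PDS5AB-NIPBL 50 genes were shared (21.6%, against 15.6% of shorter genes), and between WAPL and WAPL-NIPBL 29 (12.5% against 6.81%). The combined lines shared 30 calls, all in the same direction (12.9% against 6.39%). The treatments in different lines share no library, but every treatment included auxin. Pearson's r with auxin alone in TIR1 across the 232 genes was 0.227 (PDS5AB), 0.188 (WAPL), 0.380 (PDS5AB-NIPBL) and 0.340 (WAPL-NIPBL). Across shorter genes it was 0.250, 0.137, 0.194 and 0.193 in that order. Calls shared with TIR1 numbered 43, 33, 25 and 18, of which 29, 19, 19 and 16 had the same sign. The part of auxin in the calls shared between lines was not tested.

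**Figure D3:**
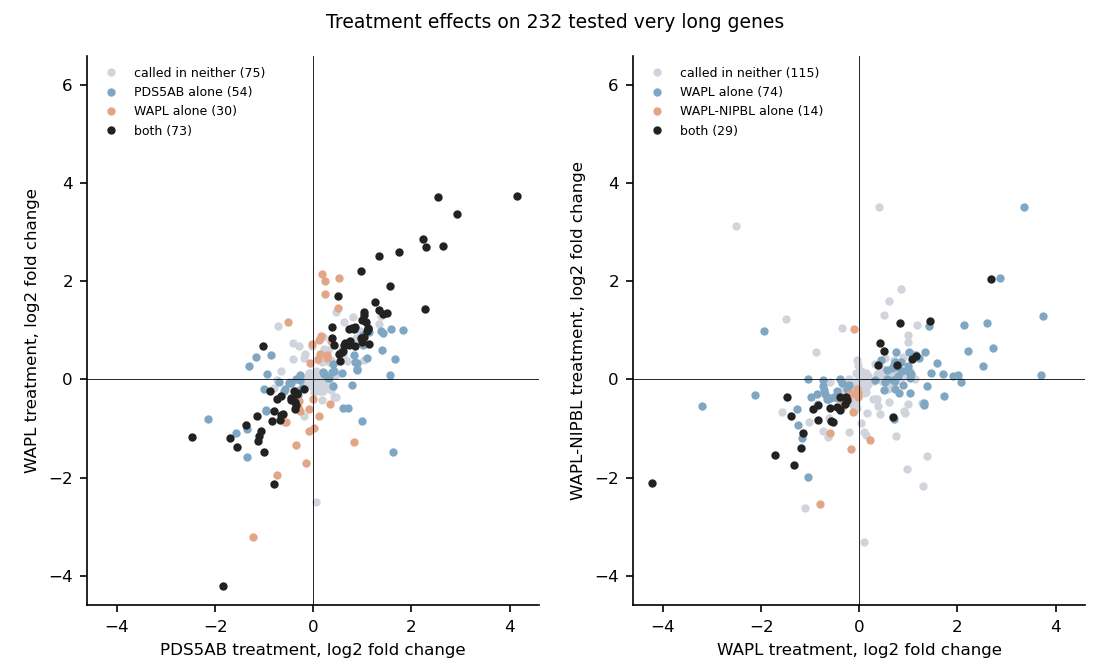
Log2 fold change of the 232 tested very long genes, 1 point a gene. Left, WAPL against PDS5AB treatment. Right, WAPL-NIPBL against WAPL treatment. Black points were called in both effects, 73 on the left and 29 on the right, and lie almost all in the quadrants of equal sign.

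In all 4 depletions 20 genes were called, 6 higher and 14 lower, and none changed sign between lines. They are 8.62% of the 232 genes, against 4.93% of shorter genes. The higher ones are 2.59%, no more than the 2.88% of shorter genes, and the lower ones 6.03%, against 1.94%. The higher genes were Ptprm, Pde10a, Kalrn, Atxn1, Nav2 and Glis3. The lower genes were Ryr2, Sh3gl2, Tenm1, Tenm4, Wwox, Dab1, Slit3, Ptprk, Tmem132d, Fbxl17, Adgrv1, Fhod3, Diaph3 and Fam172a. Glis3 and the last 6 of these fell outside the naming rule and were chosen after their values were seen. Of the 20, 8 stayed called in all 4 depletions under every alternative tried (Ptprm higher, and Ryr2, Sh3gl2, Tenm1, Dab1, Ptprk, Fbxl17 and Fhod3 lower). In WAPL-NIPBL cells 9 of the 20 calls were lost under at least 1 alternative. Fitted on the compared groups alone, 4 higher and 9 lower genes were left, while DESeq2 gave 7 and 15 and a replicate block 7 and 21. With auxin alone, 4 of the 14 lower genes were also lower (Dab1 by 1.83, Fhod3 by 0.74, Fbxl17 by 0.45 and Ptprk by 0.24 on the log2 scale), Sh3gl2 was higher and the other 9 were not called. Against auxin alone, Ryr2, Sh3gl2, Tenm1, Wwox, Slit3 and Tmem132d fell more in PDS5AB and in WAPL. Tenm4 did so in PDS5AB only and Ptprk in WAPL only. For Fbxl17, Adgrv1, Fhod3, Diaph3 and Fam172a neither difference was called. Dab1 fell less in PDS5AB than with auxin alone, by 0.72 (SE 0.257, adjusted p = 0.038). Its WAPL difference of 0.69 was not called. The combined lines were not tested against auxin alone.

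Ptprm, a receptor tyrosine phosphatase that also binds itself between cells (chromosome 17, 66666947 to 67354457, minus strand), had the largest rise of the called very long genes with 50 or more counts in each depletion. In untreated cells it was at 2.19, 1.98 and 2.10 CPM in PDS5AB and 11.9, 9.25 and 9.93 CPM after treatment. In WAPL cells it went from 0.649, 1.06 and 0.512 to 5.79, 4.55 and 4.20 CPM. No treated library of these lines overlapped an untreated one. The log2 fold changes were 2.30 (SE 0.195, adjusted p = 9.9e-11) and 2.69 (SE 0.229, adjusted p = 1.9e-10).

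Ptprm also rose in the combined lines. It went from 1.00, 1.09 and 0.622 to 5.28, 3.84 and 4.12 CPM in PDS5AB-NIPBL (log2 2.30, SE 0.230, adjusted p = 1.6e-08). In WAPL-NIPBL it went from 0.426, 0.282 and 0.175 to 1.38, 1.01 and 1.19 CPM (log2 2.05, SE 0.320, adjusted p = 5.5e-05). In TIR1 it stood at 0.404, 0.660 and 0.567 CPM untreated and 0.821, 0.837 and 0.925 with auxin (log2 0.67, adjusted p = 0.097). Untreated PDS5AB cells were the highest of the 5 untreated lines and treated WAPL-NIPBL cells the lowest of the 4 depleted ones. One exon of Ptprm overlaps a same-strand gene, AC139750.1.

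Pde10a, a phosphodiesterase of cAMP and cGMP (chromosome 17, 8525372 to 8986648, plus strand), rose in all 5 lines. It went from 2.16, 1.29 and 1.82 to 10.6, 6.89 and 8.23 CPM in PDS5AB (log2 2.28, SE 0.224, adjusted p = 1.7e-09). The fold changes were 1.44 in WAPL, 1.45 in PDS5AB-NIPBL, 1.18 in WAPL-NIPBL and 0.99 in TIR1 on the log2 scale, and no groups overlapped. The WAPL-NIPBL call was lost without untreated replicate 2 or 3 or treated replicate 3 (adjusted p up to 0.14), and the TIR1 call without untreated replicate 2 or 3 or treated replicate 1 or 3 (up to 0.105).

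Kalrn, a guanine nucleotide exchange factor for small GTPases (chromosome 16, 33969073 to 34573532, minus strand), was far more abundant. It went from 30.5, 30.5 and 29.4 to 61.2, 60.7 and 58.9 CPM in PDS5AB (log2 0.999, SE 0.0868, adjusted p = 1.7e-10). It also rose by 0.46 in TIR1 and 0.77 in WAPL, and by 0.82 and 0.29 in PDS5AB-NIPBL and WAPL-NIPBL, on the log2 scale. In WAPL-NIPBL the libraries stood at 29.7, 31.8 and 29.3 CPM untreated and 38.1, 39.8 and 33.2 treated, without overlap. That last call was lost with no filter on low counts and without untreated replicate 1 or 3 or treated replicate 1 or 2 (adjusted p up to 0.158).

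Glis3, a zinc-finger transcription factor (chromosome 19, 28258851 to 28680077, minus strand), rose most with auxin alone. It went from 13.3, 14.9 and 14.7 to 25.4, 23.5 and 23.5 CPM in TIR1 (log2 0.75, SE 0.0902, adjusted p = 5.6e-07). Its log2 rises were 0.54 and 0.38 in PDS5AB and WAPL, and 0.55 and 0.30 in the lines that also lose NIPBL. The WAPL effect on Glis3 was below that of auxin alone, by a difference of -0.38 (SE 0.126, adjusted p = 0.03). The same difference for PDS5AB was -0.21 (adjusted p = 0.24). Atxn1, a chromatin-associated protein mutated in a spinocerebellar ataxia, rose by 0.64, 1.07, 1.16, 0.95 and 0.47 in the order TIR1, PDS5AB, WAPL, PDS5AB-NIPBL and WAPL-NIPBL, and its exons overlap those of Gmpr on the other strand. The microtubule-associated protein Nav2 rose by 0.47, 0.37, 1.07, 0.37 and 0.42 in that order. Of the 6 genes higher in all depletions, Ptprm alone was not called in TIR1. In WAPL-NIPBL the Glis3, Atxn1 and Nav2 calls were each lost without untreated replicate 1 or 3 or treated replicate 3, Glis3 also without treated replicate 2, Atxn1 and Nav2 without treated replicate 1, and Nav2 without untreated replicate 2 (adjusted p up to 0.129, 0.256 and 0.102). The Atxn1 groups overlapped there. The Nav2 calls in PDS5AB and PDS5AB-NIPBL were also lost without single libraries (untreated 2 or 3 or treated 1, and untreated 1 or 2 or treated 2 or 3, adjusted p up to 0.203 and 0.184), and Nav2 shares exon sequence with Gm2788.

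Ryr2, the calcium release channel of heart muscle and brain (chromosome 13, 11553102 to 12106945, minus strand), fell in all 4 depletions. It went from 15.1, 13.9 and 14 to 4.36, 4.97 and 5.23 CPM in PDS5AB (log2 -1.56, SE 0.110, adjusted p = 3.2e-12). In WAPL it went from 14.5, 16.7 and 17.8 to 5.48, 7.25 and 5.96 CPM (log2 -1.38, SE 0.107, adjusted p = 2.4e-11). The treated libraries of both lines lay below every untreated library of the study. The fall was -0.63 in PDS5AB-NIPBL, where untreated libraries held 10.007, 10.6 and 11.6 CPM and treated ones 7.06, 7.02 and 6.73 CPM. It was -0.74 in WAPL-NIPBL (12.2, 10.3 and 10.6 against 7.48, 6.31 and 6.12 CPM). In TIR1 the change was -0.15 with an adjusted p of 0.32.

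Sh3gl2, endophilin A1, which bends membranes in synaptic vesicle uptake, was the most abundant of the strong falls (chromosome 4, 85205126 to 85639195, plus strand). It went from 50.5, 60.7 and 50.9 to 17.9, 23.4 and 21.1 CPM in PDS5AB (log2 -1.37, SE 0.0993, adjusted p = 4.8e-12). WAPL libraries were at 57.0, 68.8 and 57.6 CPM untreated and at 29.1, 33.7 and 33 CPM treated (log2 -0.94). The combined lines fell by 0.93 and 0.59 on the log2 scale, in PDS5AB-NIPBL and WAPL-NIPBL. With auxin alone it was higher, from 63.4, 69.3 and 61.9 to 80.5, 78.4 and 77.0 CPM (log2 0.28, adjusted p = 0.034), a call that was lost without any 1 of 5 of the 6 TIR1 libraries (adjusted p up to 0.114). No groups overlapped in any line.

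Wwox, an oxidoreductase gene at a common fragile site (chromosome 8, 114439655 to 115352708, plus strand), fell most after WAPL loss. Its WAPL libraries were at 18.7, 19.7 and 17.4 CPM untreated and 5.75, 7.66 and 6.56 CPM treated (log2 -1.48, SE 0.0988, adjusted p = 1.3e-12). In WAPL-NIPBL they were at 21.3, 22.7 and 19 CPM untreated and 16, 17.2 and 15.8 CPM treated (log2 -0.36, SE 0.0930, adjusted p = 0.011). The difference between these effects was 1.11 (SE 0.135, adjusted p = 4.0e-06). The WAPL-NIPBL call itself was lost without untreated replicate 2 or treated replicate 1 or 3 (adjusted p up to 0.0874). The PDS5AB and PDS5AB-NIPBL effects were -0.999 and -0.41, and the TIR1 change of -0.13 was not called.

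**Figure D4:**
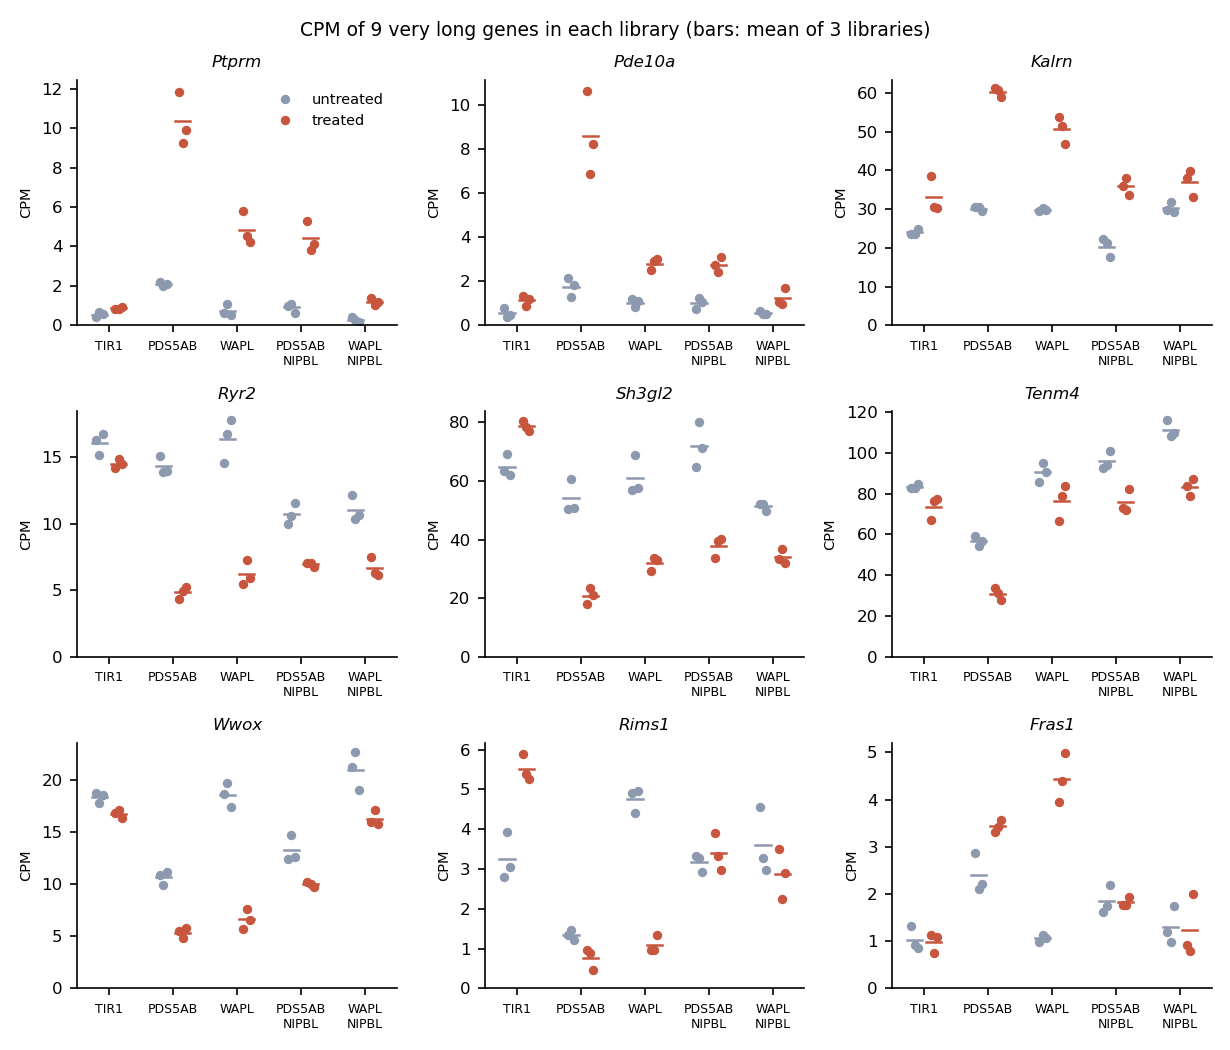
CPM of 9 very long genes in each of the 30 libraries, untreated in grey and treated in red, with bars at the mean of 3 libraries. Ptprm, Pde10a and Kalrn rise and Ryr2, Sh3gl2, Tenm4 and Wwox fall after all 4 depletions, while Rims1 falls and Fras1 rises in WAPL and neither is called in WAPL-NIPBL.

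Among the adhesion genes, Tenm1 and Tenm4 fell after all 4 depletions and Cdh4 after 3. Teneurins are transmembrane proteins that bind partners on the facing cell. Tenm3, chosen after its values were seen, was called in none of the 4 depletions (log2 -0.009 to 0.15) and rose by 0.26 with auxin alone (adjusted p = 0.018). Tenm2 was too low to be tested. Tenm1 went from 2.43, 2.12 and 2.51 to 0.821, 0.719 and 0.653 CPM in PDS5AB (log2 -1.69, SE 0.246, adjusted p = 1.6e-06), and fell by 1.195, 1.01 and 1.39 in WAPL, PDS5AB-NIPBL and WAPL-NIPBL. Tenm4 went from 59.3, 54.1 and 56.6 to 33.6, 31.2 and 27.7 CPM in PDS5AB (log2 -0.88, SE 0.0814, adjusted p = 5.3e-10), with 0.24, 0.34 and 0.42 lower in the other 3 in that order. The WAPL call of Tenm4 was lost on the compared groups alone and without untreated replicate 2 or 3 or treated replicate 1 (adjusted p up to 0.182). Each has an exon that overlaps a gene on the other strand, Sh2d1a for Tenm1 and C230038L03Rik for Tenm4. No treated library overlapped an untreated one for either gene in the 4 depletions.

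Cdh4, a classical cadherin that binds calcium-dependently between cells (chromosome 2, 179442431 to 179899373, plus strand), passed in every depletion but PDS5AB. It fell in WAPL from 9.95, 11.2 and 11.4 to 2.99, 3.78 and 3.11 CPM (log2 -1.71, SE 0.166, adjusted p = 2.3e-09). It fell in WAPL-NIPBL from 11.5, 9.48 and 9.32 to 3.46, 3.46 and 3.51 CPM, and in PDS5AB-NIPBL from 5.70, 4.79 and 4.62 to 2.73, 1.97 and 1.43 CPM (log2 -1.53 and -1.32). In PDS5AB the libraries overlapped, at 8.19, 5.19 and 6.21 CPM untreated and 7.198, 5.26 and 5.19 treated (log2 -0.15, adjusted p = 0.46). The effect in PDS5AB-NIPBL minus that in PDS5AB was -1.17 (SE 0.251, adjusted p = 0.0029).

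Of the 363 genes, 250 were placed in 1 of 7 lists by function, and the lists were not tested against each other. Over all genes tested, 25.8% were higher and 20.2% lower in PDS5AB, 17% and 15.8% in WAPL, 11.4% and 8.06% in PDS5AB-NIPBL, 5.11% and 3.45% in WAPL-NIPBL, and 10.4% and 9.59% in TIR1. Many of the list shares below lie near or under these. Among 18 tested genes of neuronal and synaptic adhesion, 6 rose and 2 fell in PDS5AB, 2 rose and 4 fell in WAPL, 0 rose and 5 fell in PDS5AB-NIPBL, and 0 rose and 6 fell in WAPL-NIPBL. The 5 were Cdh4, Tenm1, Adgrl3, Ctnnd2 and Tenm4, with log2 changes from -1.32 to -0.34, and the 6 were Cdh4, Cdh13, Tenm1, Nrg1, Ctnnd2 and Tenm4, from -1.53 to -0.42. The median log2 changes of the list were 0.23, 0.02, -0.32 and -0.29 in those lines, against 0.04, 0.004, 0.003 and 0.007 in all genes under 400 kb. With auxin alone the median of the list was -0.32, against -0.005. Adgrl3, Cdh13 and Ctnnd2 fell outside the naming rule, and Adgrl3 and Cdh13 averaged 49.9 and 25.4 counts. Ctnnd2 is a catenin that binds cadherins, Adgrl3 a latrophilin and Nrg1 a growth factor for ERBB receptors.

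Of 22 tested transmitter receptors and synaptic scaffolds, 3 rose and 6 fell in PDS5AB, 2 rose and 9 fell in WAPL, 0 rose and 5 fell in PDS5AB-NIPBL, and only Ryr2 (lower) passed in WAPL-NIPBL. In TIR1 3 rose and 3 fell. Rims1, a scaffold of the presynaptic release site (chromosome 1, 22286251 to 22805994, minus strand), had the largest WAPL fall of the called genes with 50 or more counts. It went from 4.91, 4.41 and 4.96 to 0.958, 0.968 and 1.33 CPM (log2 -2.12, SE 0.209, adjusted p = 3.5e-09). In WAPL-NIPBL its groups overlapped, at 4.55, 3.28 and 2.97 CPM untreated and 3.504, 2.24 and 2.902 treated, and the 2 effects differed by 1.80 (SE 0.287, adjusted p = 0.00016). In TIR1 it rose from 2.79, 3.92 and 3.05 to 5.90, 5.38 and 5.26 CPM (log2 0.77, adjusted p = 0.0035). In PDS5AB it fell by 0.80, a call lost without treated replicate 3 (adjusted p = 0.0922).

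Of the list's higher genes, Cacna2d1, an auxiliary subunit of voltage-gated calcium channels, rose from 6.95, 8.99 and 8.28 to 18.3, 20.4 and 19.6 CPM in PDS5AB (log2 1.27, SE 0.185, adjusted p = 1.6e-06) and from 1.11, 2.72 and 1.54 to 3.76, 6.78 and 5.29 CPM in WAPL (log2 1.58, SE 0.224, adjusted p = 2.0e-06). Ryr3, a relative of Ryr2 whose exons overlap those of Aven on the other strand, rose in WAPL from 2.84, 3.84 and 3.54 to 9.55, 11.6 and 11.9 CPM (log2 1.70, SE 0.168, adjusted p = 3.5e-09). With auxin alone Ryr3 fell by 0.93 (adjusted p = 0.0013). Neither gene passed the test in the combined lines. Ryr2 and Ryr3 thus moved in opposite directions in WAPL cells, with no overlap between groups for either.

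Of 19 tested genes of axon guidance and receptor phosphatases, 4 rose and 6 fell in each single-cofactor line, 2 rose and 4 fell in PDS5AB-NIPBL, and 2 rose and 5 fell in WAPL-NIPBL. Auxin alone gave 3 higher and 1 lower. In PDS5AB that is 21.1% higher against 25.8% of all genes and 31.6% lower against 20.2%. Slit3, a secreted ligand of Robo receptors, fell by 0.83, 0.84, 0.71 and 0.52 on the log2 scale in PDS5AB, WAPL, PDS5AB-NIPBL and WAPL-NIPBL. In PDS5AB it went from 16.5, 13.4 and 13.5 to 8.17, 8.004 and 8.10 CPM (SE 0.122, adjusted p = 1.7e-06). The last of these falls was lost without untreated replicate 1 or treated replicate 3 (adjusted p up to 0.0777). Ptprk, a phosphatase of the same subfamily as Ptprm, fell by 0.36, 0.60, 0.58 and 0.58 in that order. Its WAPL-NIPBL libraries went from 56.6, 62.7 and 56.8 to 37.0, 41.1 and 39.6 CPM (SE 0.0692, adjusted p = 8.9e-07). With auxin alone Ptprk fell by 0.24 (adjusted p = 0.014), a call lost with no filter and without untreated replicate 2 or treated replicate 3 (adjusted p up to 0.105), and the PDS5AB effect minus it was -0.13 (adjusted p = 0.36). Ptprm and Ptprk therefore changed in opposite directions in all 4 depletions.

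Of 24 tested DNA-binding and RNA-binding regulators, 11 rose and 4 fell in PDS5AB, and 11 rose and 2 fell in WAPL. In PDS5AB-NIPBL 4 rose and 0 fell, in WAPL-NIPBL 2 rose and 2 fell, and in TIR1 7 rose and 4 fell. The median log2 change was 0.40 in PDS5AB and 0.68 in WAPL. Zfhx3, a large homeodomain and zinc-finger factor, rose by 0.82 in PDS5AB, 1.02 in WAPL and 0.59 in PDS5AB-NIPBL, and its WAPL-NIPBL change of 0.16 was not called. Maml2, a Notch coactivator, rose by 0.98 in TIR1, 0.38 in PDS5AB, 0.83 in WAPL and 1.15 in WAPL-NIPBL. Its PDS5AB call was lost on the compared groups alone, with no filter on low counts, and without untreated replicate 1 or 3 or treated replicate 1 or 2 (adjusted p up to 0.114), and it shares exon sequence with Gm22643. Nfib, which fell by 0.95 in PDS5AB (SE 0.128, adjusted p = 4.9e-07), had a PDS5AB-NIPBL change of -0.05 (adjusted p = 0.84), and the difference was 0.90 (SE 0.175, adjusted p = 0.0012). Bnc2 fell by 1.02 in PDS5AB and rose by 0.69 in WAPL, and it was the 1 gene called in both single-cofactor lines with opposite signs. With auxin alone it fell by 1.05, and the PDS5AB effect minus that of auxin alone was 0.03 (SE 0.202, adjusted p = 0.93).

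**Figure D5:**
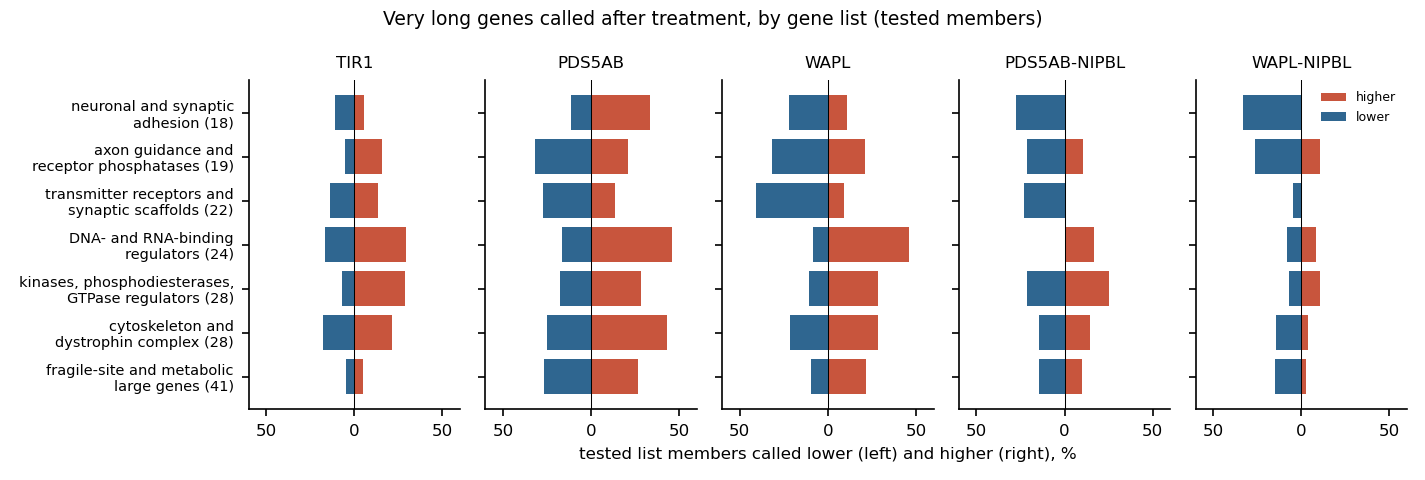
Percent of the tested members of 7 gene lists called lower (left, blue) and higher (right, red) after treatment in each line, with the number tested in brackets. The adhesion list has 6 of 18 lower and 0 higher in WAPL-NIPBL, and the list of DNA-binding and RNA-binding regulators has 11 of 24 higher in both PDS5AB and WAPL.

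Of 28 tested kinases, phosphodiesterases and GTPase regulators, 8 rose and 5 fell in PDS5AB, 8 rose and 3 fell in WAPL, 7 rose and 6 fell in PDS5AB-NIPBL, 3 rose and 2 fell in WAPL-NIPBL, and 8 rose and 2 fell in TIR1. Elmo1, which activates Rac together with DOCK proteins, rose in PDS5AB and fell in WAPL-NIPBL. It went from 14.2, 10.8 and 8.75 to 28.2, 17.9 and 16.8 CPM in PDS5AB (log2 0.90, SE 0.158, adjusted p = 2.7e-05). It went from 11.4, 12.8 and 11.5 to 4.20, 5.57 and 5.28 CPM in WAPL-NIPBL (log2 -1.23, SE 0.174, adjusted p = 1.3e-05). Elmo1 also fell by 0.64 with auxin alone, and an exon of it overlaps Gm32036. Frmd4a, a scaffold of cell polarity proteins, fell by 1.14 in PDS5AB, 0.75 in WAPL and 0.41 in PDS5AB-NIPBL, and its exons overlap 2 opposite-strand genes.

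Of 28 tested genes of the cytoskeleton and the dystrophin complex, 12 rose and 7 fell in PDS5AB, 8 rose and 6 fell in WAPL, 4 rose and 4 fell in PDS5AB-NIPBL, 1 rose and 4 fell in WAPL-NIPBL, and 6 rose and 5 fell in TIR1. The list also holds the exocyst subunit Exoc4, and Exoc6b, Vps13b and Trappc9, so its name does not hold for every member. The PDS5AB shares were 42.9% higher against 25.8% of all genes and 25% lower against 20.2%. Lpp, a LIM protein of focal adhesions, rose by 0.84 in PDS5AB, 1.06 in WAPL and 0.44 in PDS5AB-NIPBL, the last lost without untreated replicate 1 (adjusted p = 0.0529). Ank2, an ankyrin that anchors membrane proteins to spectrin, rose by 0.80 in WAPL (SE 0.121, adjusted p = 5.3e-06) and fell by 0.52 in TIR1, and an exon of it overlaps Gm16958. The list of fragile-site and metabolic genes had 41 tested members. In it 11 rose and 11 fell in PDS5AB, 9 rose and 4 fell in WAPL, 4 rose and 6 fell in PDS5AB-NIPBL, 1 rose and 6 fell in WAPL-NIPBL, and 2 rose and 2 fell in TIR1. The PDS5AB shares were 26.8% in each direction, the higher one near the 25.8% of all genes, and the WAPL lower share of 9.76% was under the 15.8% of all genes. The adhesion list had 1 higher and 2 lower in TIR1.

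Fras1, an extracellular protein of basement membranes, passed in WAPL and in none of the other 4 treatments. It went from 0.988, 1.13 and 1.06 to 3.95, 4.401 and 4.99 CPM in WAPL (log2 2.07, SE 0.250, adjusted p = 1.4e-07). In WAPL-NIPBL the groups overlapped, at 1.18, 0.987 and 1.75 CPM untreated and 0.908, 0.796 and 2.00 treated (log2 -0.06, adjusted p = 0.94). The difference between the effects was -2.13 (SE 0.372, adjusted p = 0.00046), and the WAPL effect exceeded that of auxin alone by 2.15 (SE 0.381, adjusted p = 0.00011). The difference from PDS5AB, where the change was 0.52 (adjusted p = 0.063), was not tested. Fras1 has an exon overlapping Gm42604 on the other strand.

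Differences between effects were tested in the same fit. They share control libraries with the effects they compare, so they are given side by side with them and not as separate support. The PDS5AB effect exceeded that of auxin alone in 35 very long genes and was below it in 29, against 13.9% and 12.4% of all genes. The WAPL effect was above it in 34 and below it in 31, against 9.86% and 10.9%. The PDS5AB-NIPBL effect was above the PDS5AB effect in 9 and below it in 7, against 4.97% and 4.48%, and with a replicate block 33 were called (14.2%), against 13.8% of all genes under that block. The WAPL-NIPBL effect was above the WAPL effect in 5 and below it in 19, against 3.03% and 2.16%. The median of this last difference was -0.27 over the 232 genes and 0.01 over shorter genes. Ryr2 fell less in PDS5AB-NIPBL than in PDS5AB, by 0.93 (SE 0.156, adjusted p = 0.00025), and for Elmo1 the same difference was -1.18 (SE 0.226, adjusted p = 0.00094).

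Auxin alone changed some very long genes by more than 1 on the log2 scale. Enox1, a cell-surface oxidase (chromosome 14, 77156763 to 77721760, plus strand), fell in TIR1 from 4.12, 5.37 and 5.64 to 0.517, 0.972 and 0.819 CPM (log2 -2.68, SE 0.387, adjusted p = 1.0e-05). It also fell in PDS5AB, PDS5AB-NIPBL and WAPL-NIPBL by 2.15, 2.49 and 2.55 on the log2 scale. In WAPL it was at 4.54, 2.29 and 5.04 CPM untreated and 2.30, 1.79 and 2.69 treated, where the groups overlapped (log2 -0.81, adjusted p = 0.076). An exon of Enox1 overlaps Gm6994. Dab1, the adaptor of the Reelin pathway, fell in TIR1 from 4.59, 3.39 and 4.86 to 1.52, 1.29 and 0.819 CPM (log2 -1.83, SE 0.197, adjusted p = 1.1e-07) and by 0.87 to 1.14 in the 4 depletions.

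Ephb1, a receptor for ephrin-B ligands, was the largest auxin rise by the naming rule, from 1.18, 2.64 and 1.88 to 5.75, 6.11 and 8.59 CPM (log2 1.86, SE 0.238, adjusted p = 1.8e-06). In WAPL its groups overlapped (log2 -0.11, adjusted p = 0.79). Slc7a11, the cystine and glutamate antiporter, was lower with auxin alone by 1.90 (adjusted p = 0.012), but its treated TIR1 libraries stood at 3.37, 0.249 and 3.04 CPM. Without treated replicate 2 the call was lost (adjusted p = 0.0738). The auxin effect in TIR1 also crosses the break in library numbers.

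The untreated lines differed from each other in very long genes. Against untreated TIR1, 86 of 232 were higher and 35 lower in the PDS5AB line, against 15.5% and 16.5% of all genes, and 28 and 11 in the WAPL line, against 6.62% and 7.39%. In the PDS5AB-NIPBL line 75 were higher and 27 lower, against 16.5% and 17.8%, and in WAPL-NIPBL 55 and 50, against 13.4% and 14.6%. These 4 comparisons share the untreated TIR1 libraries, and each line is 1 clone.

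Pkhd1, the gene of fibrocystin in the kidney, was lower than TIR1 in all 4 other lines before treatment. It stood at 4.74, 5.68 and 6.28 CPM in TIR1 and at 0.287, 0.218 and 0.197 CPM in PDS5AB-NIPBL (log2 -4.55, SE 0.395, adjusted p = 3.2e-10), with no overlap. After treatment PDS5AB-NIPBL libraries held 1, 0 and 1 counts of it, so the further fall was at least 1.77-fold, a call lost without any 1 of the 6 libraries of that line (adjusted p up to 0.125). Gphn, the scaffold of inhibitory synapses that also makes molybdenum cofactor, was higher in WAPL-NIPBL, at 48.6, 45.6 and 44.9 CPM against 10.4, 12 and 10.8 CPM (log2 2.07, SE 0.0903, adjusted p = 1.0e-16). Cacna2d1 and Ryr3 were already 2.12 and 2.00 higher on the log2 scale in untreated PDS5AB than in TIR1, and rose further on treatment. Exons of Pkhd1 and Gphn overlap another gene.

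The longest tested genes changed in different ways. Fgfr2, a receptor for fibroblast growth factors, spans 2960899 bases in the deposited models and 104357 in RefSeq, and an exon of it overlaps Ctbp2 on the same strand. It rose in PDS5AB from 9.14, 12.3 and 14.1 to 24.7, 24.7 and 27.9 CPM (log2 1.12, SE 0.167, adjusted p = 2.5e-06) and by 1.02 and 0.90 in WAPL and PDS5AB-NIPBL. Ptprd, another receptor phosphatase with an exon overlapping B230208B08Rik, fell by 1.17 in PDS5AB and rose by 0.92 in TIR1, a call that was lost without untreated or treated replicate 3 (adjusted p up to 0.0596). Dmd, dystrophin, spans 2257271 bases on the X chromosome. Its libraries were at 70.6, 69.3 and 74.7 CPM in untreated TIR1 and 92.8, 90.8 and 84.4 with auxin (log2 0.32, adjusted p = 0.01). It fell by 0.40 in PDS5AB, from 50.04, 60.6 and 61.6 to 38.3, 44.9 and 47.2 CPM (SE 0.0902, adjusted p = 0.00052).

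Cntnap2, a neurexin-like adhesion protein that spans 2244856 bases with a longest intron of 593607, passed in none of the 5 treatments, at 4.92, 4.49 and 4.43 CPM in untreated TIR1. Macrod2, which removes ADP-ribose from proteins and spans 1997657 bases, passed in none either. Its log2 changes ran from -0.33 to -0.02 and its groups overlapped in 4 of the 5 treatments. Between untreated lines Cntnap2 was at 6.81 to 8.88 CPM in untreated WAPL-NIPBL and at 1.32 to 1.95 CPM in untreated PDS5AB.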

How the data were processed

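Each of the 30 libraries gave 1 column of fragment counts per gene. Per the file headers, the authors made these counts with featureCounts 2.0.1 on paired reads over GENCODE vM23 exons of GRCm38, with no strand option, no multi-mapping reads and no read shared between overlapping genes. The submitters' processing notes name cutadapt, STAR 2.7.7a and deepTools. Reads from introns were not counted, so unspliced RNA is not measured.

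Spans came from the exon coordinates of the deposited table. Genes passing filterByExpr (minimum count 10; 19868 genes) were fitted in R 4.3.3 with edgeR 4.0.16: TMM factors from 0.950 to 1.13, 10 group means and quasi-likelihood F-tests, with 13 contrasts each adjusted by Benjamini and Hochberg over all tested genes. CPM values are TMM scaled. The SE is the log2 fold change divided by the square root of F. Total counts, 19632704 to 45539021 a library, set the precision. Differences among samples of one group rest on 3 libraries.

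The naming rule was limited to genes averaging 50 counts or more, and took the 4 called genes with the largest log2 change in each direction whose groups did not overlap (each treatment), the 2 largest in each direction (each untreated line and each difference), the 5 of largest span, the 5 of highest level per kb, and from each list the 3 with the smallest adjusted p in any depletion, 53 genes in all, not all of which are reported here. The 7 lists were neuronal and synaptic adhesion, axon guidance and receptor phosphatases, transmitter receptors and synaptic scaffolds, DNA-binding and RNA-binding regulators, kinases with phosphodiesterases and GTPase regulators, cytoskeleton and dystrophin complex, and fragile-site and metabolic genes. The very long genes and the lists were chosen with earlier results of these data known.

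Replicate numbers come from the labels. Same-numbered untreated and treated libraries deviated together in the 4 degron lines (correlations of 0.109 to 0.333) and not in TIR1 (-0.010 to 0.057). The alternatives were other size factors (RLE), DESeq2 1.42.0, no filter, a replicate block, the compared groups alone, each library left out, a 500 kb limit, a mean of at least 50 counts, and genes with no exon overlap. The fitting steps were tested on simulated data.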

Additional observations from a re-analysis of the deposited data

Results flagged for a closer look

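For 16 named pairs of gene and comparison the effects of 2 lines differed by an interaction term in the same fit (edgeR, Benjamini-Hochberg adjusted over all tested genes). All values are differences of log2 fold changes, and none of the 16 calls was lost under any alternative tried.

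The PDS5AB effect minus the auxin effect in TIR1 was 2.01 for Nrg1 (SE 0.303, adjusted p = 1.2e-05) and 1.63 for Ptprm (SE 0.357, adjusted p = 0.001). It was -2.09 for Ptprd (SE 0.354, adjusted p = 5.4e-05) and -1.69 for Mgat4c, a glycosyltransferase gene (SE 0.409, adjusted p = 0.0025). Nrg1 fell by 1.40 with auxin alone and rose by 0.61 in PDS5AB, and Ptprd rose by 0.92 and fell by 1.17.

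The WAPL effect minus the auxin effect was 2.63 for Ryr3 (SE 0.261, adjusted p = 1.2e-08) and 2.15 for Fras1. It was -2.89 for Rims1 (SE 0.280, adjusted p = 7.6e-09) and -1.96 for Ephb1 (SE 0.343, adjusted p = 9.5e-05). Ryr3 and Rims1 were called in both lines with opposite signs. These differences contain the TIR1 effect, which cannot be told apart from the break in library numbers.

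The PDS5AB-NIPBL effect minus the PDS5AB effect was 0.93 for Ryr2 and 0.90 for Nfib, and -1.18 for Elmo1 and -1.17 for Cdh4. The WAPL-NIPBL effect minus the WAPL effect was 1.80 for Rims1 and 1.11 for Wwox, -2.13 for Fras1, and -1.79 for the glycosyltransferase gene Galnt17 (SE 0.364, adjusted p = 0.0024). These comparisons are between clones that also differ in the NIPBL-FKBP and RAD21-Halo tags and in treatment with dTAG-13. Tags, clone, the compound itself and NIPBL loss therefore cannot be told apart.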

How the results depend on the processing

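Of 401 calls of single named genes, 306 held in every alternative, 95 were lost in at least 1, and 0 reversed. The replicate block ended 0 of them, and it moved 1 share of very long genes called by over 1.5 times, PDS5AB-NIPBL minus PDS5AB (6.90% to 14.2%, and over all genes 9.46% to 13.8%). Of 312 alternatives for the shares called and medians, 272 stayed close to the main value and 40 moved, for which the cause was not tested beyond the change in genes or libraries that each alternative makes. DESeq2 gave 13% for that same difference, against 14.4% of all genes. Scaling by RLE or in DESeq2 shifted no median of all genes by over 0.01.

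With no filter on low counts the share called was 16.9% in TIR1, 34.7% in PDS5AB, 27.5% in WAPL, 12.3% in WAPL-NIPBL, 28.4% for untreated PDS5AB-NIPBL, 17.8% and 18.6% for PDS5AB and WAPL minus TIR1, against 9.53%, 22.1%, 15%, 4.22%, 15.8%, 12.4% and 9.77% of all genes, and the medians were 0 in TIR1, 0.18 in WAPL, and 0 and -0.0583 in PDS5AB-NIPBL and WAPL-NIPBL. With a mean of at least 50 counts the shares were 30.3% in WAPL-NIPBL, 11.4% for PDS5AB-NIPBL minus PDS5AB and 15.9% for WAPL-NIPBL minus WAPL, against 11.7%, 13.3% and 7.19% of all genes with such counts, and the medians 0.000946 in PDS5AB and 0.00435 in WAPL. At 500 kb the medians were 0.11, 0.0819, -0.15 and -0.22 in PDS5AB, WAPL, PDS5AB-NIPBL and WAPL-NIPBL. Without exon overlap they were -0.0638, 0.13 and 0.0843 in TIR1, PDS5AB and WAPL. On the compared groups alone PDS5AB had 0.15. With genes at 10 or more counts throughout more than 1 group, an alternative added after seeing the data, PDS5AB had 0.13 and WAPL 0.10.

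Leaving out 1 library at a time gave shares called of 11.3% to 14.6% in WAPL-NIPBL, against 18.5% with all (5.60% to 6.51% of all genes, against 8.57%), and medians of 0.12 to 0.21 in PDS5AB, 0.12 to 0.19 in WAPL, -0.077 to -0.027 in PDS5AB-NIPBL (without untreated replicates 1 and 2) and -0.15 to -0.071 in WAPL-NIPBL (without untreated replicates 3 and 2). The 131 genes under the filter had a mean of at most 5.33 counts, which limits what a test of them can show.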
